A study of Mus musculus with 12 samples.

Results

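The genes described here encode the degradative content of the lysosome and the proton pump that acidifies it, measured by RNA-seq in the cortex of tau transgenic and non-transgenic mice. They were chosen by name and number 53 of the 24062 gene symbols in the count table: 27 lysosomal hydrolases, cofactors, membrane proteins and regulators taken from a written list, and the 26 symbols that begin with Atp6v or Atp6ap, the subunits and accessory proteins of the vacuolar H+-ATPase (V-ATPase). Cortex was taken at 9 months of age from 4 groups of 3 mice, with 1 library per mouse. WT mice carried neither the tau transgene nor a Tia1 mutation, and Tia1+/- mice had 1 frame-shifted copy of Tia1, which encodes an RNA-binding protein of stress granules. PS19 mice (P301S Tia1+/+) were hemizygous for a human 1N4R tau transgene with the P301S mutation, driven by the Prnp promoter, and P301S Tia1+/- mice carried both. The mice came from crosses of the B6;C3 PS19 line with Tia1 mutants on C57BL/6J, and animals with signs of end-stage or neuromuscular disease were left out.

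Libraries were grouped by their titles, which are also the column names of the count table. The deposited genotype entries of both Tia1 mutant groups are exchanged with respect to the titles. Which of them is right was not tested, and under the entries Tia1+/- and P301S Tia1+/- would change places in all results below. The methods state male mice, yet Xist had 3304 to 5693 counts in the 6 Tia1+/- and P301S Tia1+/- libraries and 0 to 13 in the 6 WT and PS19 libraries, and the Y-linked Ddx3y had 0 to 2 counts in the former and 1605 to 2296 in the latter. Sex and Tia1 genotype therefore cannot be told apart, whereas PS19 against WT and P301S Tia1+/- against Tia1+/- each compare libraries of like Xist level. Tia1 itself did not separate the groups, at 75.4 to 93.8 CPM (counts per 1 M after TMM scaling) in WT, 70.8 to 77.9 in PS19, 61.4 to 79.8 in Tia1+/- and 72.6 to 77.8 in P301S Tia1+/- libraries. Mapt, whose row could hold reads of the human transgene, did not separate transgenic from non-transgenic libraries either, at 439 to 462 CPM in PS19, 336 to 357 in P301S Tia1+/-, 256 to 413 in WT and 344 to 502 in Tia1+/- libraries. Prnp, whose promoter drives the transgene, was at 2018 to 2158 CPM in PS19, 1404 to 1535 in P301S Tia1+/-, 1334 to 1879 in WT and 996 to 1922 in Tia1+/- libraries. In both rows all PS19 libraries lay above the WT range, and in neither row did the P301S Tia1+/- libraries. Above that range were also Tia1+/- replicates 1 and 2 in Mapt (502 and 455 CPM) and replicate 1 in Prnp (1922 CPM). Library totals ran from 11978962 to 19146484 counts, and 15440 genes passed a filter on low counts. Tissue content was uneven: 9 olfactory bulb markers summed to 683 to 831 CPM in the P301S Tia1+/- libraries, 1094, 159 and 36.8 in WT replicates 1 to 3, 8.63, 7.75 and 136 in Tia1+/- replicates 1 to 3 and 6.96 to 16.4 in PS19. All WT libraries thus lay above all PS19 libraries in bulb markers. Further, 7 striatal markers summed to 2126 CPM in Tia1+/- replicate 3 against 171 to 364 elsewhere, and 8 microglial markers summed to 528 CPM in PS19 replicate 1 against 245 to 385 elsewhere. For some lists and genes in which WT replicate 1, Tia1+/- replicate 3 or PS19 replicate 1 set the value, a fit without that library is given. Without WT replicate 1, the highest bulb sum outside P301S Tia1+/- was 159 CPM. In such fits P301S Tia1+/- and bulb content cannot be told apart. Oligodendrocyte markers differed between groups as well: Mbp, Mog, Mag, Mobp and Cnp summed to 807 to 1534 CPM in WT, 1349 to 2319 in PS19, 1891 to 2544 in Tia1+/- and 1382 to 1483 in P301S Tia1+/- libraries, with none at 0.

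Lysosomes break down proteins, glycans and lipids with hydrolases that work at acid pH. The V-ATPase supplies that pH: its cytosolic V1 sector hydrolyses ATP and turns a rotor, and its membrane V0 sector carries protons through a ring of proteolipid subunits. In brain, loss of many of these hydrolases or their cofactors causes storage disease with neurodegeneration, microglia express several cathepsins strongly, and neurons use the same pump to load synaptic vesicles. TFEB, a transcription factor of the lysosomal gene network, binds the CLEAR element, whose core is the palindrome CACGTG.

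RefSeq promoter windows (GRCm38.p6, 250 bases before to 50 after the annotated start) were matched by symbol for 42 of the 53 members, and a few are shown because this element was found in members of both classes. CACGTG stood in at least 1 window of 13 of these 42 genes (31.0%), against 7.15% of all 32851 promoter windows and 8.09% of all 27025 genes with one. It was found for 9 of 24 lysosomal members (37.5%) and 4 of 18 V-ATPase members (22.2%). The longer palindrome TCACGTGA, which contains CACGTG, stood in 7 of the 42 genes (16.7%), against 1.12% of all genes with a window. Both motifs read the same on either strand. The members with CACGTG were Arsa, Ctsa, Ctsd, Ctsl, Gaa, Gla, Glb1, Lamp1 and Mcoln1 among the lysosomal genes and Atp6v0b, Atp6v0d1, Atp6v0e and Atp6v1a in the pump. The 6 stretches of 80 bases, each upstream of the start and written 5′ to 3′ along the gene, show its spacing, with CACGTG in capitals.
Lamp1, chr8:13159081-13159160, plus strand: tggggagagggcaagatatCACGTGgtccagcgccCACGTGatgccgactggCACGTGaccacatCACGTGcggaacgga
Mcoln1, chr8:3500439-3500518, plus strand: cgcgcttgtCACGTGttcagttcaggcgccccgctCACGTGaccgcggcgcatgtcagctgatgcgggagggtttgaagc
Gaa, chr11:119267783-119267862, plus strand: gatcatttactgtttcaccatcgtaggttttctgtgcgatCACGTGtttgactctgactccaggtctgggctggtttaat
Gla, chrX:134601176-134601255, minus strand: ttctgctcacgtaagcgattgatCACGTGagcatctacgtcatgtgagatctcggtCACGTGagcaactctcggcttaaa
Atp6v0b, chr4:117887330-117887409, minus strand: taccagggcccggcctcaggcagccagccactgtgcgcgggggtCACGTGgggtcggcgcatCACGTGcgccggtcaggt
Atp6v1a, chr16:44139351-44139430, minus strand: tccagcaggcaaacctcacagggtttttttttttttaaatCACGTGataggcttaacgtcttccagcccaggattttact
Lamp1, a major glycoprotein of the lysosomal membrane, had 4 copies within the 80 bases before its start, and Mcoln1, the lysosomal calcium channel, and Atp6v0b, a proteolipid subunit, had 2 each. In Gaa and Gla, which had the smallest p of the lysosomal members in Tia1+/- against WT and in the interaction below, the element lay farther out, 140 bases before the start in Gaa and 227 and 194 bases before it in Gla. A match is a match of letters in this window and was not tested as a binding site.

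All 27 lysosomal members passed the filter, and together they made up 4360 CPM on average over the 12 libraries. Levels are compared between genes only as CPM per kb of the principal transcript. Psap, the precursor of the saposins that present sphingolipids to their hydrolases, was the highest at 584 CPM per kb on average, followed by Ctsd at 181, Lamp1 at 133 and Ctsb at 115. Psap and Ctsd did not overlap in any library, since Psap ran from 506 to 635 and Ctsd from 148 to 292. Ctsd and Lamp1 were closer: the Lamp1 range of 127 to 142 CPM per kb lay just below the lowest Ctsd library, while Lamp1 and Ctsb (88.5 to 131) overlapped. The lowest were Galc, the galactosylceramidase mutated in Krabbe disease, at 4.63 CPM per kb and Tfeb at 1.97. Reads could be divided between genes for some of them, because 36.6% of the 50-base windows of the Ctsd transcript also occur in a transcript of Gm49369, 28.1% of those of Ctsl in Gm47123, Gm49230 or Cflar, and 15.4% to 17.3% of those of Arsa, Ctsa and Ctsb in overlapping neighbours.

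Of the 26 pump symbols, 19 passed the filter and 7 did not. Those 19 hold a full set of V1 subunits (A to H) and every V0 subunit but c. For most subunits with several genes, 1 isoform dominated in cortex: Atp6v1b2 at 262 CPM per kb against 0.0937 for the kidney-type Atp6v1b1, Atp6v1c1 at 165 against 0.945 for Atp6v1c2, Atp6v1e1 at 308 against 0.0194 for the testis-type Atp6v1e2, Atp6v0d1 at 139 against 0.0385 for Atp6v0d2, and Atp6v0e2 at 149 against 5.15 for Atp6v0e. For the a subunit, which anchors the stator and sorts the pump to its membrane, Atp6v0a1 stood at 77.6, Atp6v0a2 at 16.1 and Atp6v0a4 at 0.0930 CPM per kb. The G subunit was shared by Atp6v1g2, the form enriched in neurons, at 118 and the widespread Atp6v1g1 at 96.2, with overlapping ranges (67.7 to 155 and 84.2 to 105), while Atp6v1g3 had 2 counts in PS19 replicate 3 and 0 in the other libraries. The 2 accessory proteins Atp6ap1 and Atp6ap2, both X-linked, stood at 167 and 157 CPM per kb. For each subunit other than G, the dominant isoform lay above the others in all 12 libraries.

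The V0 subunit with few reads was Atp6v0c, the c subunit that forms most of the proton-carrying ring. It had only 1 to 8 counts in each library (0.175 CPM per kb on average), while its ring partner Atp6v0b stood at 182. In the annotation 32.5% of the 50-base windows of its transcript are shared with the pseudogenes Atp6v0c-ps1 and Atp6v0c-ps2, and Atp6v0c-ps2, which shares 90.1% of its own, had 0 counts in all 12 libraries. The treatment of reads with several alignments is not given in the sources used here, and its part in this value was not tested. Atp6v0c was singled out after its values were seen, and no change of it is given.

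**Figure D1:**
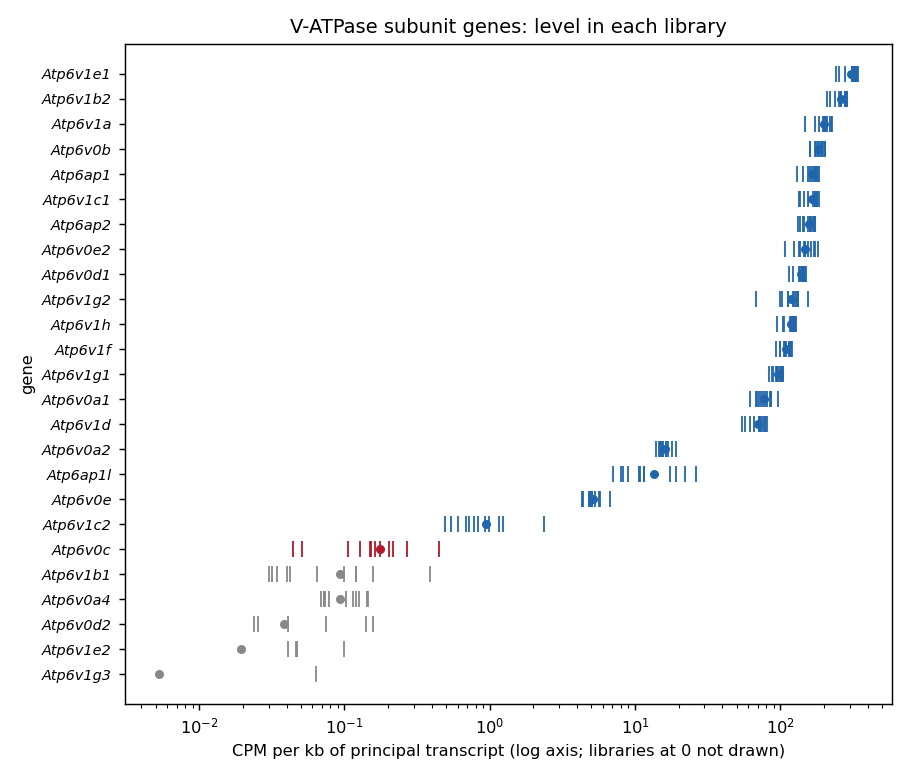
Levels of the V-ATPase genes in cortex, as CPM per kb of principal transcript on a log axis, with a tick for each library above 0 and a dot for the mean of 12 libraries. Blue marks genes that passed the filter, grey those that did not, and red Atp6v0c, which lies at 0.175 CPM per kb among isoforms that are hardly used in cortex; Atp6v0c-ps2, at 0 throughout, is not drawn.

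The comparison of PS19 with WT asks how the transcripts of this system stand in tau transgenic cortex. Most members had higher fitted levels in PS19, in 23 of 27 lysosomal genes and 16 of 19 pump genes, against 49.0% of all genes tested, but no member passed the threshold of an adjusted p of 0.05 in edgeR's quasi-likelihood test. No gene at all passed it here (0% of those tested). At an unadjusted p under 0.05, 7 lysosomal members were higher and 1 was lower, and 3 pump members were higher and 0 lower, against 6.56% of all genes higher and 9.73% lower. DESeq2's Wald test called 2 lysosomal members, Gaa and Grn, and 0 pump members, where it called 2.77% of all genes. The median log2 fold change was 0.14 over the lysosomal members and 0.16 over the pump members, against −0.0066 over all genes. In these bulk samples, a change in the number of cells of a type and a change in RNA per cell cannot be told apart.

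Summed over the 27 lysosomal members, the level was 3859, 3956 and 4258 CPM in WT, 5083, 4459 and 4502 in PS19, 4388, 4458 and 4104 in Tia1+/- and 4298, 4505 and 4453 in P301S Tia1+/- libraries. The PS19 libraries lay above all WT libraries, and PS19 replicate 1 lay above all others. The pump genes summed to 4160, 5000 and 5130 CPM in WT, 5334, 5357 and 5303 in PS19, 5338, 5381 and 4281 in Tia1+/- and 5315, 5085 and 4703 in P301S Tia1+/- libraries. The low values of the pump were those of WT replicate 1 and Tia1+/- replicate 3, in which 9 and 5 of the 19 genes had their lowest level of 12. In the same libraries 7 neuronal markers summed to 6308 and 5662 CPM, against 6198 to 8656 in the other 10, and the part of the tissue content in these values was not tested.

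**Figure D2:**
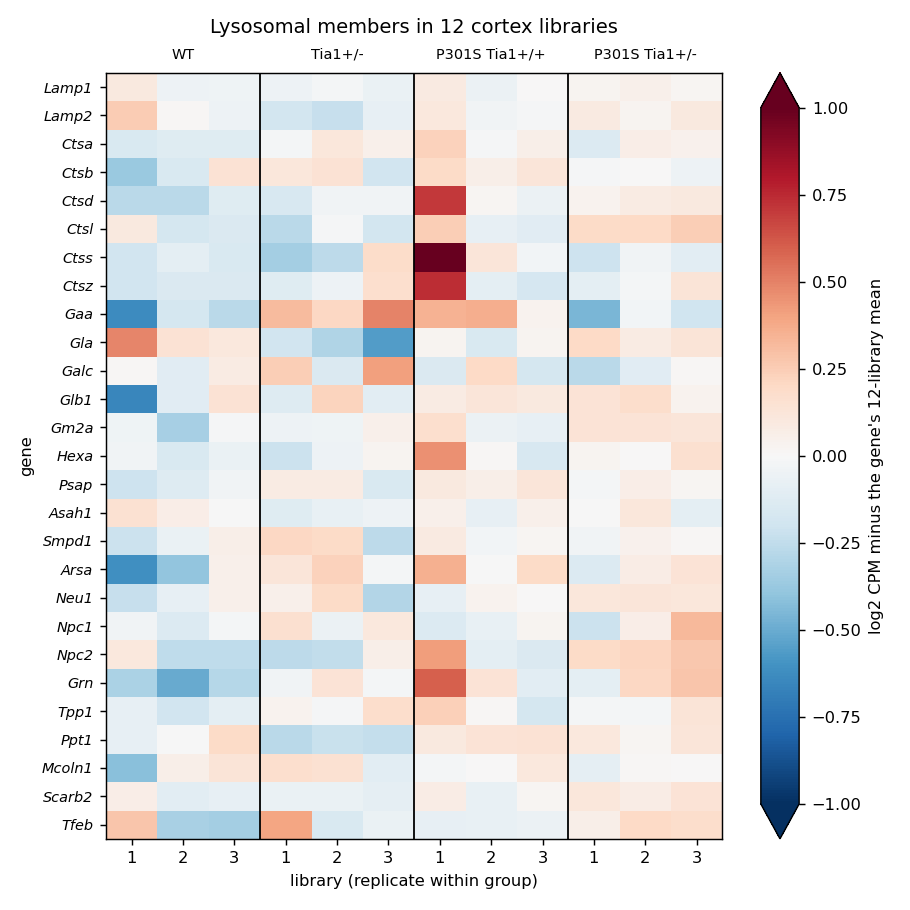
Heat map of the 27 lysosomal members (rows) in the 12 libraries (columns, by group and replicate), as log2 CPM minus the gene's mean over the 12 libraries, from −1 (blue) to 1 (red). PS19 replicate 1 is the reddest column, with the highest level of 12 in 12 of 27 genes, and the Gaa row is lower in WT and P301S Tia1+/- than in Tia1+/- and PS19; values past the ends of the scale take its end colours.

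By role, the 7 proteases (Ctsa, Ctsb, Ctsd, Ctsl, Ctss, Ctsz and Tpp1) had the highest median log2 fold change between PS19 and WT, 0.24, with 7 of 7 higher. The 5 activators and lipid transfer proteins (Psap, Gm2a, Grn, Npc1 and Npc2) were also 5 of 5 higher, with a median of 0.21. The 6 glycosidases had a median of 0.14 with 4 higher and 2 lower, the 4 lipid and sulfate hydrolases (Asah1, Smpd1, Ppt1 and Arsa) 0.090 with 3 higher, and the 5 membrane proteins and regulators (Lamp1, Lamp2, Mcoln1, Scarb2 and Tfeb) 0.027 with 4 higher. PS19 replicate 1 stood above the other PS19 libraries in the proteases, whose median of centred log2 CPM was 0.25 in it and 0.012 and −0.058 in the others. Without that library the median fold changes were 0.17 for the proteases (6 of 7 higher), 0.062 for the activators and lipid transfer proteins, 0.071 for the glycosidases, 0.088 for the lipid and sulfate hydrolases and 0.019 for the membrane proteins and regulators. Without the 3 libraries that stand apart, the proteases were at 0.091 and the activators at 0.14.

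Gaa, the acid alpha-glucosidase that degrades lysosomal glycogen, was at 115, 157 and 148 CPM in WT, 226, 229 and 182 in PS19, 221, 205 and 251 in Tia1+/- and 130, 174 and 155 in P301S Tia1+/- libraries. The levels of the Tia1+/- and PS19 libraries lay above those of every WT and P301S Tia1+/- library. In PS19 against WT its log2 fold change was 0.60 with a standard error (SE) of 0.15, and its adjusted p in edgeR was 0.159. The oligodendrocyte markers had the same signs as Gaa in each comparison: in PS19 against WT 5 of 5 had higher values, 4 of them at an unadjusted p under 0.05, with a median log2 fold change of 0.55, and their part in the Gaa values was not tested. Their median of centred log2 CPM was −0.98 in WT replicate 1, against −0.14 and −0.34 in the other WT libraries. Fits without WT replicate 1 are not given for these markers. Within groups, libraries stood in the same order in summed markers and in Gaa in WT, but not in the other groups. In PS19 replicates 1 to 3 the markers summed to 1349, 1619 and 2319 CPM, and Gaa was lowest in replicate 3. Grn, the precursor of granulins and a regulator of lysosomal function whose loss causes frontotemporal dementia, was at 25.0, 21.9 and 25.6 CPM in WT, 47.2, 34.3 and 28.9 in PS19, 30.4, 34.3 and 30.8 in Tia1+/- and 29.2, 36.0 and 37.7 in P301S Tia1+/- libraries. All 9 libraries of the other groups lay above the 3 WT libraries. Its log2 fold change in PS19 against WT was 0.61 (SE 0.17, adjusted p = 0.170 in edgeR), and 0.40 (SE 0.13) without PS19 replicate 1.

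Ctsd, the main aspartyl protease of the lysosome, was at 316, 316 and 349 CPM in WT, 621, 385 and 365 in PS19, 339, 371 and 371 in Tia1+/- and 390, 403 and 406 in P301S Tia1+/- libraries. One library set the PS19 mean of 457 ± 143 (SD, n = 3), since the other PS19 libraries, at 385 and 365, lay nearer to the highest WT library, at 349. Its log2 fold change in PS19 against WT was 0.48 (SE 0.17, adjusted p = 0.215 in edgeR), and 0.21 (SE 0.0889) without that library. Ctss, a cathepsin of microglia and antigen-presenting cells, had the same high library, at 69.6, 74.5 and 71.6 CPM in WT, 172, 86.8 and 78.0 in PS19, 62.9, 66.5 and 90.5 in Tia1+/- and 69.0, 77.8 and 73.9 in P301S Tia1+/- libraries. The second-highest Ctss library, Tia1+/- replicate 3, was also the second-highest in microglial markers, at 385 CPM. In PS19 against WT all 8 microglial markers had higher values, 7 of them at an unadjusted p under 0.05 and 0 past the adjusted threshold, with a median log2 fold change of 0.69 (0.36 without PS19 replicate 1), and the part of the microglial and oligodendrocyte markers in the lysosomal values was not tested. Without PS19 replicate 1 the median over the lysosomal members was 0.062 and that over the pump members 0.13. Without WT replicate 1 they were 0.18 and 0.065, and without the 3 libraries that stand apart 0.067 and 0.068.

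**Figure D3:**
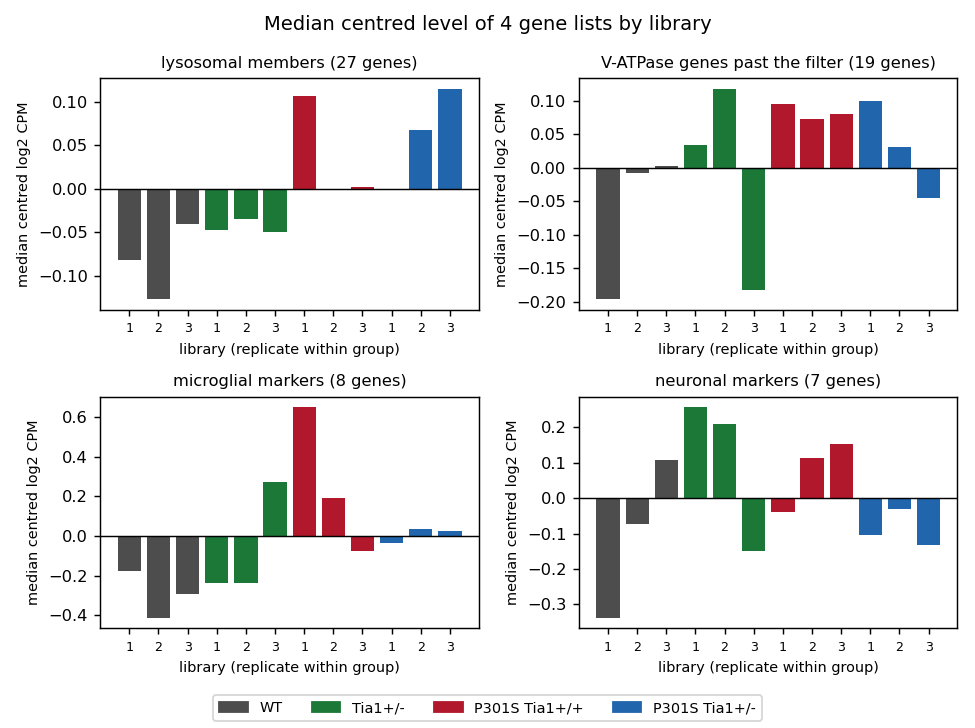
Median over each list of log2 CPM minus the gene's 12-library mean, as 1 bar per library, for the 27 lysosomal members, the 19 tested pump genes, 8 microglial markers and 7 neuronal markers; the vertical scales differ. PS19 replicate 1 is high in the lysosomal and microglial panels (0.11 and 0.65), P301S Tia1+/- replicate 3 is as high in the lysosomal panel (0.11) but not in the microglial one (0.025), and WT replicate 1 is low in the pump and neuronal panels (−0.20 and −0.34).

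Among the pump genes, those with the smallest p in PS19 against WT were Atp6v1b2 and Atp6v1f. Atp6v1b2, the nucleotide-binding B subunit of brain V1, was at 594, 624 and 738 CPM in WT, 791, 819 and 740 in PS19, 814, 793 and 676 in Tia1+/- and 794, 783 and 720 in P301S Tia1+/- libraries. PS19 and WT did not overlap, but the highest WT and the lowest PS19 library were 738 and 740 CPM. Its log2 fold change was 0.27 (SE 0.11, adjusted p = 0.262 in edgeR). Atp6v1f, a small subunit of the central stalk, was at 70.4, 65.9 and 74.8 CPM in WT, 84.3, 77.6 and 80.8 in PS19, 75.4, 83.0 and 70.2 in Tia1+/- and 82.0, 80.2 and 76.1 in P301S Tia1+/- libraries, and its log2 fold change was 0.20 (SE 0.082, adjusted p = 0.270 in edgeR). These 3 PS19 libraries lay above the WT libraries, and 18.2% of the 50-base windows of its transcript also occur in AC169506.3. The median over the pump members changed sign, to −0.16, once bulb marker level entered the fit as a covariate. The lysosomal median of that fit is not given.

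**Figure D4:**
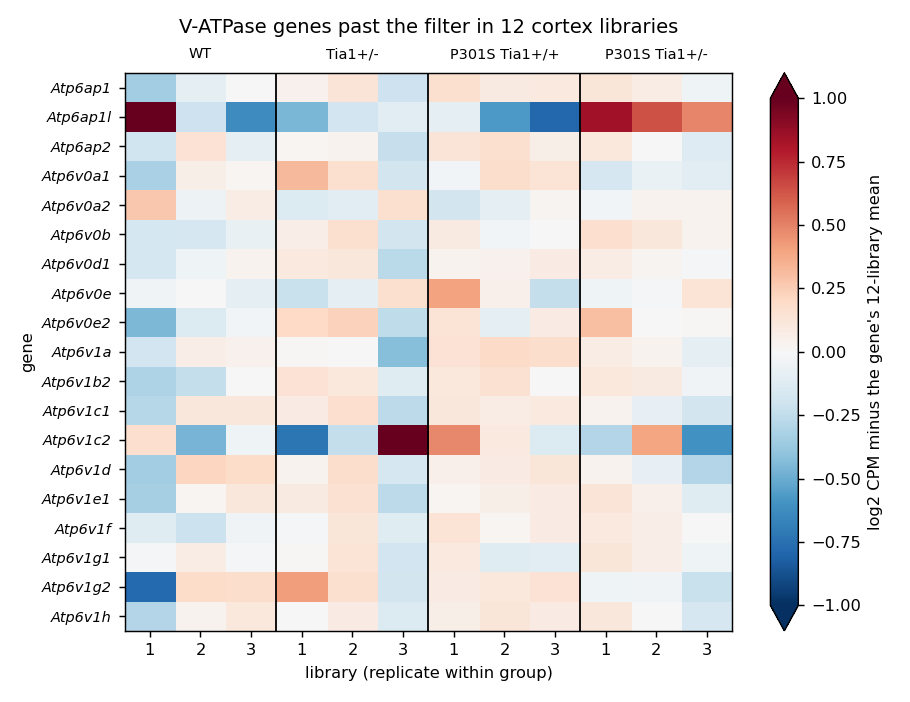
Heat map of the 19 V-ATPase genes that passed the filter (rows) in the 12 libraries (columns, by group and replicate), as log2 CPM minus the gene's mean over the 12 libraries, from −1 (blue) to 1 (red). The columns of WT replicate 1 and Tia1+/- replicate 3 are blue for most subunits (lowest of 12 in 9 and 5 genes), and Atp6ap1l is red in WT replicate 1 and the P301S Tia1+/- libraries; values past the ends of the scale take its end colours.

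The comparison of Tia1+/- with WT asks what the Tia1 genotype does without the tau transgene, with the limits on sex and tissue content given above. No member was called by edgeR, where 0.712% of all genes were, and DESeq2 called 3 lysosomal members (Gaa, Gla and Ppt1) and 0 pump members, with 6.59% of all genes. Of the lysosomal members 19 had higher and 8 lower values, with 3 higher and 3 lower at an unadjusted p under 0.05, against 8.63% and 10.5% of all genes. The pump genes had 13 higher and 6 lower values, none of them at an unadjusted p under 0.05. Of all genes tested, 50.7% had higher values. The medians were 0.13 and 0.051, against 0.0057 over all genes, and the lysosomal median was 0.076 without WT replicate 1. The pump median crossed 0 without Tia1+/- replicate 2 (−0.0089) and was 0.0077 without WT replicate 1 and 0.14 without Tia1+/- replicate 3. With the bulb marker level as a covariate it was −0.13, and 1 lysosomal member was called (Ppt1, lower), with 9.39% of all genes. Without WT replicate 3, Gla (lower) and Arsa (higher) were called, with 3.16% of all genes.

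Gla, the X-linked alpha-galactosidase deficient in Fabry disease, was at 38.3, 30.0 and 29.2 CPM in WT, 27.7, 24.4 and 27.6 in PS19, 23.8, 22.1 and 18.4 in Tia1+/- and 31.2, 28.7 and 29.7 in P301S Tia1+/- libraries. The 3 Tia1+/- libraries were the lowest of the 12. Its log2 fold change in Tia1+/- against WT was −0.60 (SE 0.13, adjusted p = 0.0580 in edgeR). Gaa had a value of the opposite sign, 0.69 (SE 0.15, adjusted p = 0.0589 in edgeR), with 3 of 3 Tia1+/- libraries above every WT library. Both values lay just outside the threshold. Oligodendrocyte markers were likewise 5 of 5 higher in Tia1+/- than in WT, all at an unadjusted p under 0.05 and 1 past the adjusted threshold, with a median of 0.95. In the pump, Atp6v1b2 had a log2 fold change of 0.22 (SE 0.11, adjusted p = 0.278) and Atp6v0b, at 160, 161 and 172 CPM in WT, 193, 178 and 181 in PS19, 190, 202 and 160 in Tia1+/- and 204, 197 and 186 in P301S Tia1+/- libraries, one of 0.16 (SE 0.092, adjusted p = 0.360). For both, 2 Tia1+/- libraries lay above the WT range, while Tia1+/- replicate 3 lay within it for Atp6v1b2 and just under it for Atp6v0b.

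The other X-linked members did not share one pattern. Lamp2, a lysosomal membrane protein with a role in autophagy, was at 131, 111 and 105 CPM in WT, 118, 107 and 109 in PS19, 96.3, 93.2 and 104 in Tia1+/- and 116, 111 and 117 in P301S Tia1+/- libraries. As with Gla, the Tia1+/- libraries were the 3 lowest. Atp6ap1, which assembles the V0 sector, was at 285, 339 and 361 CPM in WT, 406, 385 and 387 in PS19, 373, 396 and 314 in Tia1+/- and 394, 381 and 353 in P301S Tia1+/- libraries, with the PS19 libraries above the WT libraries. Atp6ap2, also known as the prorenin receptor, was at 318, 403 and 340 CPM in WT, 399, 406 and 380 in PS19, 370, 373 and 310 in Tia1+/- and 393, 363 and 333 in P301S Tia1+/- libraries, and its groups overlapped in each comparison. The 2 groups with high Xist, Tia1+/- and P301S Tia1+/-, did not overlap in Gla or in Lamp2.

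The comparison of P301S Tia1+/- with PS19 asks what the Tia1 genotype does in tau transgenic mice, again with sex and bulb content along with it. No member was called by edgeR, where 0.240% of all genes were, and DESeq2 called 0 in both classes, with 5.28% of all genes. Lysosomal members had 11 higher and 16 lower values, with 0 higher and 2 lower at an unadjusted p under 0.05, and pump members 5 higher and 14 lower, with 1 higher and 0 lower, against 11.7% of all genes higher and 7.62% lower. At any p, 51.5% of all genes had higher values. The medians were −0.021 and −0.064, against 0.0097 over all genes. Without PS19 replicate 1 the lysosomal median was 0.066, on the other side of 0, and with the bulb covariate the pump median was 0.36. In that fit 3 lysosomal members (Ctsb, Neu1 and Smpd1) and 3 pump members (Atp6v0e2, Atp6v1e1 and Atp6v1g2) were called higher, with 7.55% of all genes.

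Gaa had a log2 fold change of −0.47 (SE 0.15, adjusted p = 0.149 in edgeR), with 3 of 3 P301S Tia1+/- libraries below every PS19 library. The 5 oligodendrocyte markers all had lower values, none at an unadjusted p under 0.05, with a median of −0.19. Ctss had one of −0.61 (SE 0.25, adjusted p = 0.227 in edgeR), and of −0.19 (SE 0.15) without PS19 replicate 1. In the pump the smallest p belonged to Atp6ap1l, a paralogue of Atp6ap1, which was at 31.2, 12.7 and 9.43 CPM in WT, 13.7, 9.77 and 8.43 in PS19, 10.6, 12.8 and 13.6 in Tia1+/- and 26.3, 22.8 and 20.6 in P301S Tia1+/- libraries. The 4 libraries with the highest Atp6ap1l were also the 4 highest in olfactory bulb markers. Its log2 fold change was 1.12 (SE 0.37, adjusted p = 0.156 in edgeR), and −0.43 with the bulb level as a covariate. It was called in a fit of only the 6 libraries compared, where its log2 fold change was also 1.12 (SE 0.18, adjusted p = 0.00287), and without WT replicate 1 (adjusted p = 0.00696), as was Gaa (adjusted p = 0.0246 and 0.0389), in fits that called 20.1% and 10.3% of all genes. Atp6v0a1, the neuronal a subunit, was at 247, 323 and 314 CPM in WT, 304, 348 and 340 in PS19, 386, 345 and 272 in Tia1+/- and 275, 295 and 285 in P301S Tia1+/- libraries. Its P301S Tia1+/- libraries lay below the PS19 libraries, its log2 fold change was −0.21 (SE 0.14, adjusted p = 0.400 in edgeR), and with the bulb covariate it was 0.36. Without the 3 libraries that stand apart, 3 lysosomal members (Ctsl and Npc2 higher, Gaa lower) and 2 pump members (Atp6ap1l higher, Atp6v0a1 lower) were called, no larger a share than the 22.3% of all genes called in that fit.

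The comparison of P301S Tia1+/- with Tia1+/- asks what the tau transgene does on the Tia1+/- background, and it shares its P301S Tia1+/- libraries with the comparison before. No member and no gene was called by edgeR (0% of those tested), while DESeq2 called 3 lysosomal members (Gaa, Gla and Ppt1) and 0 pump members, with 2.53% of all genes. Lysosomal members had 19 higher and 8 lower values, with 6 higher and 1 lower at an unadjusted p under 0.05, and pump members 13 higher and 6 lower, with 1 higher and 0 lower, against 8.92% of all genes higher and 6.66% lower. At any p, 51.1% of all genes had higher values. The medians were 0.074 and 0.038, against 0.0064 over all genes, and the pump median was below 0 without Tia1+/- replicate 3 (−0.039) or P301S Tia1+/- replicate 1 (−0.014), and 0.35 with the bulb covariate. The fit with that covariate called 3 lysosomal members (Ctsb, Neu1 and Ppt1) and 4 pump members (Atp6ap1, Atp6v0e2, Atp6v1a and Atp6v1e1) higher, and 8.01% of all genes, while a fit of only these 6 libraries called Atp6ap1l higher, with 2.22% of all genes. Ppt1, the palmitoyl-protein thioesterase lost in infantile neuronal ceroid lipofuscinosis, was at 125, 132 and 151 CPM in WT, 141, 145 and 146 in PS19, 109, 113 and 112 in Tia1+/- and 142, 134 and 143 in P301S Tia1+/- libraries. Its Tia1+/- libraries were the 3 lowest of 12 and lay close together. Its log2 fold change was 0.32 (SE 0.078, adjusted p = 0.178 in edgeR) and that of Gla 0.48 (SE 0.13, adjusted p = 0.183). Both were called without WT replicate 1, with adjusted p of 0.0271 and 0.0264, in a fit that called 6.11% of all genes. In the fit of all 12 libraries Gaa was at −0.56 (SE 0.15), and the 5 oligodendrocyte markers had lower values, 4 of them at an unadjusted p under 0.05, with a median of −0.52. In the pump, Atp6ap1l had a log2 fold change of 0.91 (SE 0.36, adjusted p = 0.273 in edgeR) and Atp6v0a1 one of −0.23 (SE 0.14, adjusted p = 0.430), and with the bulb covariate they were −0.39 and 0.27. Without the 3 libraries that stand apart, 6 lysosomal members were called: Ctsl, Gla, Lamp2, Npc2 and Ppt1 higher and Gaa lower. In that fit 3 pump members were called, Atp6ap1l higher and Atp6v0a1 and Atp6v1g2 lower, and 25.6% of all genes.

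The difference between the effect of the Tia1 genotype with and without the transgene is the interaction, (P301S Tia1+/- minus PS19) minus (Tia1+/- minus WT), and all 4 groups enter it. No member was called by edgeR, where 0.00648% of all genes were, and DESeq2 called 2 lysosomal members (Gaa and Gla) and 1 pump member (Atp6ap1l), with 7.63% of all genes. Lysosomal members had 12 higher and 15 lower values, with 2 higher and 3 lower at an unadjusted p under 0.05, and pump members 3 higher and 16 lower, with 1 higher and 0 lower, against 13.6% of all genes higher and 9.28% lower. At any p, 50.5% of all genes had higher values. The medians were −0.15 and −0.13, against 0.0049 over all genes, and the lysosomal median was −0.064 without PS19 replicate 1 and the pump median −0.070 without WT replicate 1. With the bulb covariate the pump median changed sign, to 0.49, the lysosomal median was −0.070, and Ctsb, Atp6v0e2, Atp6v1e1 and Atp6v1g2 were called with higher values, with 8.53% of all genes. Gaa had the largest value of the lysosomal members, −1.16 (SE 0.21, adjusted p = 0.0579 in edgeR), with an adjusted p of 9.09e-05 in DESeq2. It was called in 3 of the 12 fits that each left out 1 library, those without WT replicate 1 (−1.06), WT replicate 3 (−1.24) and Tia1+/- replicate 3 (−1.09), which called 1.55%, 6.59% and 2.60% of all genes. In the fit of all 12 libraries the oligodendrocyte markers had lower values in 5 of 5, all at an unadjusted p under 0.05 and 0 past the adjusted threshold, with a median of −1.14, and their part in the Gaa value was not tested. Gla followed at 0.77 (SE 0.18, adjusted p = 0.0689 in edgeR), with an adjusted p of 0.00743 in DESeq2 and 0.0360 without WT replicate 3. In the pump, Atp6ap1l had a value of 1.65 (SE 0.52, adjusted p = 0.111) and of 0.94 without WT replicate 1, and Atp6v0a1 one of −0.40 (SE 0.19, adjusted p = 0.242). Both changed sign with the bulb covariate, to −0.89 and 0.49. Without the 3 libraries that stand apart, Gaa, Gla, Atp6ap1l and Atp6v0a1 were called, at −0.93, 0.55, 1.25 and −0.49, in a fit that called 14.0% of all genes. That fit lacks WT replicate 1, so in it P301S Tia1+/- and bulb content cannot be told apart.

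**Figure D5:**
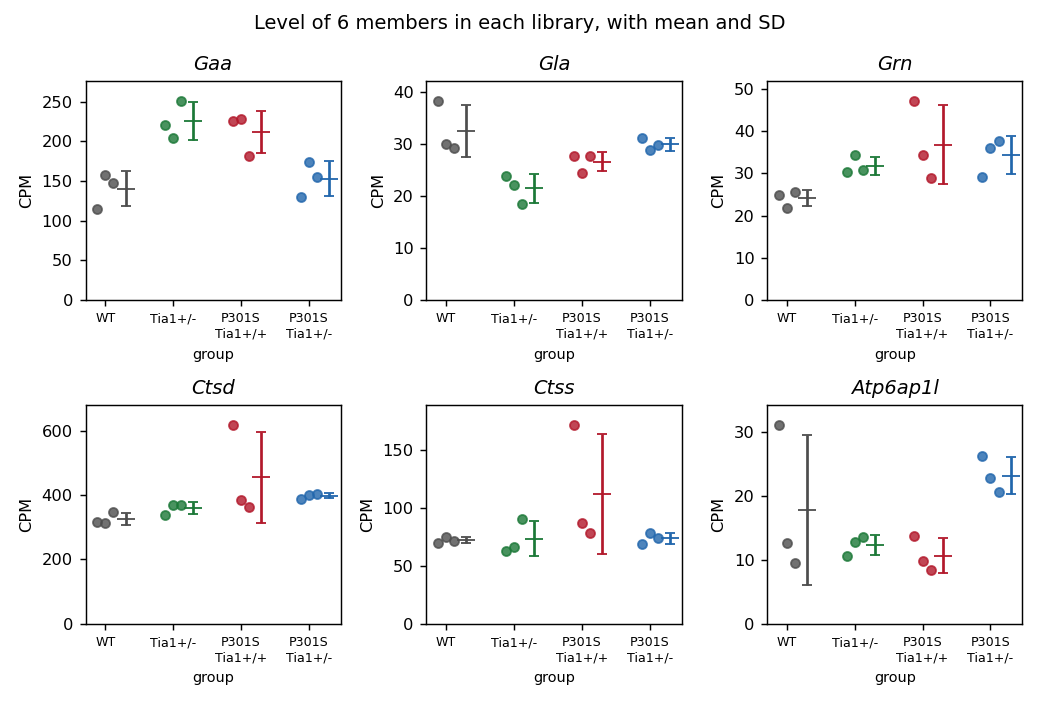
CPM in each library for Gaa, Gla, Grn, Ctsd, Ctss and Atp6ap1l by group (dots), with the group mean and SD beside them (bar and whiskers, n = 3), on axes that start at 0. Gaa is high in Tia1+/- and PS19, Gla is lowest in Tia1+/-, single PS19 libraries stand out in Ctsd and Ctss, and Atp6ap1l is highest in WT replicate 1 and the P301S Tia1+/- libraries.

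Tfeb, the regulator named above, was among the lowest members, at 5.44, 3.55 and 3.50 CPM in WT, 4.21, 4.24 and 4.28 in PS19, 5.93, 4.01 and 4.25 in Tia1+/- and 4.65, 5.16 and 5.06 in P301S Tia1+/- libraries. The PS19 libraries were the closest together of any group, the P301S Tia1+/- libraries all lay above them, and in WT and Tia1+/- replicate 1 stood above the rest. Tfeb had only 42 to 86 counts in each library. Its log2 fold change in P301S Tia1+/- against PS19 was 0.22 (SE 0.21, adjusted p = 0.576 in edgeR).

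Other genes of the pathway were read from lists of names. Of 31 further lysosomal hydrolases that passed the filter, 27 had higher values in PS19 than in WT (8 at an unadjusted p under 0.05 and higher, 0 lower, median log2 fold change 0.21, against 6.56% and 9.73% of all genes), 24 in Tia1+/- than in WT (median 0.15), 18 in P301S Tia1+/- than in PS19 (median 0.067) and 22 in P301S Tia1+/- than in Tia1+/- (median 0.10). Without PS19 replicate 1, 23 of 32 further hydrolases had higher values in PS19 than in WT, with 5 higher and 0 lower at an unadjusted p under 0.05 (4.78% and 6.50% of all genes) and a median of 0.17. WT replicate 1 had the lowest sum of these genes of all libraries, 1182 CPM against 1544 and 1669 in the other WT libraries, and values without it are not given. Of 17 further lysosomal membrane proteins, 10 had higher values in PS19 than in WT (median 0.16). The 9 V-ATPase assembly factors and regulators named outside the Atp6 prefix had 6 higher and 3 lower values in PS19 than in WT (median 0.12), and the 13 genes of enzyme delivery and control 8 higher and 5 lower (median 0.010). None of these genes passed the adjusted threshold in these comparisons or in the interaction.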

How the data were processed

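Cortex RNA of 12 mice was sequenced with paired ends from stranded total RNA libraries. The authors aligned reads to mm10 with Bowtie and TopHat (TopHat2 2.0.6 in the submitters' processing notes) and deposited raw counts per gene symbol from featureCounts. The gene annotation, strand setting and handling of reads with several alignments are not given in the sources used here, so antisense and near-identical copies could not be separated. Columns were mapped to samples by title.

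Counts were normalized by TMM, filtered with filterByExpr (15440 of 24062 symbols kept) and compared by edgeR's quasi-likelihood test (version 4.0.16, R 4.3.3) in 1 fit of 12 libraries with a mean per group. p values were adjusted by Benjamini-Hochberg over all genes tested within a comparison, with a threshold of 0.05. CPM are counts per 1 M after TMM, and heat maps use log2 CPM with a prior count of 2. The comparisons share control libraries. Lengths and positions come from GENCODE M21 on GRCm38 (mm10), which held 23682 of the symbols (932 by an older name), and promoters from RefSeq on GRCm38.p6. All replicate pairs differed beyond counting noise.

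The members, lists and tests were chosen with earlier results of these data known. Fold changes are printed for the 2 members of each class with the smallest p in a comparison, since none passed the threshold, and 12-library levels for these, Tfeb, Grn, Ctsd and the X-linked members. Other genes named with values were chosen after their values were seen. One marker gene of the oligodendrocyte list is not reported here, and the list's values are without it. Alternatives were DESeq2's size factors in edgeR, DESeq2 1.42.0's Wald test, no filter, at least 10 counts in every library, the replicate number as a block, GC and length offsets (15296 genes), both together, only the 6 libraries compared, the olfactory bulb marker level as a covariate, and each library left out in turn. The test was tried on simulated counts first.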

Additional observations from a re-analysis of the deposited data

Results flagged for a closer look

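Gaa and Gla were the members whose libraries separated in opposite directions in the comparisons of Tia1 genotype, and also in those of the tau transgene. How many of all genes do so was not counted. Both genes were picked by their separation in the tau comparisons, and all these comparisons use the same 12 libraries. The separations are therefore no test of the pattern. By a different measure, an unadjusted p under 0.05 in the interaction, 13.6% of all genes were higher and 9.28% lower. For Gaa, every Tia1+/- library lay above every WT library and every P301S Tia1+/- library below every PS19 library, and the interaction, as a log2 value, was −1.16 (SE 0.21, adjusted p = 0.0579 in edgeR). For Gla, every Tia1+/- library lay below every WT library and every P301S Tia1+/- library above every PS19 library, with an interaction of 0.77 (SE 0.18, adjusted p = 0.0689 in edgeR). The 5 oligodendrocyte markers had the signs of Gaa, with a median of 0.95 in Tia1+/- against WT, −0.19 in P301S Tia1+/- against PS19 and −1.14 in the interaction, and their part was not tested. WT replicate 1 had the lowest sum of these markers of all libraries. Within groups, the order of libraries in these markers was that of Gaa in WT only. In the comparisons of the tau transgene, which are of like Xist level, every PS19 library lay above every WT library in Gaa and below it in Gla. Every P301S Tia1+/- library lay below every Tia1+/- library in Gaa and above it in Gla. For Gaa and Gla the test of the difference missed the threshold, and in the comparisons of Tia1 genotype Xist level and Tia1 genotype cannot be told apart. The groups follow the titles, and the interaction was not fitted with the deposited genotype entries.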

How the results depend on the processing

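No member was called in any comparison with DESeq2's size factors, without a filter, with at least 10 counts in every library, with the replicate block or with GC and length offsets. Over all groups the replicate numbers did not pair the libraries (7 of 18 same-numbered pairs had a residual correlation above 0.1, median −0.060), but all 3 pairs of P301S Tia1+/- with Tia1+/- were above 0.1 (0.123 to 0.240). For these groups a fit of their 6 libraries with the replicate block, added after seeing the data, called 0 members and 0.964% of all genes, with medians of 0.077 and 0.041. In the 12-library fit with the replicate block the medians over the lysosomal and pump members were 0.14 and 0.16 in PS19 against WT, with 0 calls in every comparison. DESeq2's test called 2 lysosomal members in PS19 against WT, 3 in Tia1+/- against WT, 3 in P301S Tia1+/- against Tia1+/-, and 2 lysosomal and 1 pump member in the interaction (2.77%, 6.59%, 2.53% and 7.63% of all genes). In fits of only the 6 libraries compared, 1 lysosomal and 1 pump member were called in P301S Tia1+/- against PS19, and 1 pump member against Tia1+/- (20.1% and 2.22% of all genes). With GC and length offsets the lysosomal median was 0.063 in Tia1+/- against WT and −0.089 in the interaction, and with the replicate block added 0.074 and −0.087.

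With the olfactory bulb covariate there was 1 lysosomal call in Tia1+/- against WT, 3 lysosomal and 3 pump calls in P301S Tia1+/- against PS19, 3 and 4 against Tia1+/-, and 1 and 3 in the interaction, where 9.39%, 7.55%, 8.01% and 8.53% of all genes were called. The pump medians became −0.16 in PS19 against WT, −0.13 in Tia1+/- against WT, 0.36 and 0.35 in P301S Tia1+/- against PS19 and Tia1+/-, and 0.49 in the interaction, and the lysosomal medians 0.065 in Tia1+/- against WT and −0.070 in the interaction. Lysosomal medians with this covariate are not given for the other comparisons. Reversed signs were those of Atp6v1b2 in PS19 against WT (−0.0088), Atp6v0b in Tia1+/- against WT (−0.0085), Atp6ap1l in P301S Tia1+/- against PS19 (−0.43), against Tia1+/- (−0.39) and in the interaction (−0.89), and Atp6v0a1 in the same comparisons (0.36, 0.27 and 0.49). All P301S Tia1+/- libraries are high and all PS19 libraries low in bulb markers, so the covariate and these groups cannot be told apart.

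Without WT replicate 1, Tia1+/- replicate 3 and PS19 replicate 1, an alternative chosen after seeing the data, 3 lysosomal and 2 pump members were called in P301S Tia1+/- against PS19, 6 and 3 against Tia1+/-, and 2 and 2 in the interaction, beside 22.3%, 25.6% and 14.0% of all genes. In that fit bulb markers summed to at most 159 CPM outside P301S Tia1+/- and to 683 to 831 in it. Bulb content and this group cannot be told apart there. The lysosomal medians were then 0.067 in PS19 against WT, 0.072 in Tia1+/- against WT, 0.067 in P301S Tia1+/- against PS19 and −0.042 in the interaction. With single libraries left out in turn, the lysosomal median ranged from 0.062 to 0.19 in PS19 against WT, from 0.076 to 0.18 in Tia1+/- against WT, from −0.063 to 0.066 in P301S Tia1+/- against PS19 and from −0.24 to −0.064 in the interaction. Lysosomal calls ranged from 0 to 2 in Tia1+/- against WT, 0 to 1 in P301S Tia1+/- against PS19, 0 to 3 against Tia1+/- and 0 to 3 in the interaction, and pump calls from 0 to 1 in each of the last 3, in fits that called up to 3.16%, 10.3%, 6.11% and 6.59% of all genes. The cause of these changes was not tested. Members with few counts, such as Atp6v0c and Atp6v1b1, allow no statement about change at this depth.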
